A study of Mus musculus with 16 samples.

Results

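The loci described here are the olfactory receptor genes of the mouse, the largest family of G protein-coupled receptor genes in this genome. They were taken as the RefSeq protein-coding genes of GRCm38.p6 on chromosomes 1 to 19 whose symbol is Olfr followed by digits alone, and none carried the newer Or form of symbol. This gave 1100 receptor genes among 20665 protein-coding genes. A gene's region was its body plus 2 kb on each side, and a gene was counted as marked where at least 1 bp of that region lay under a peak. The symbol alone chose the genes, and no peak was used. A further 4 genes, Olfr367-ps, Olfr1532-ps1, Olfr715b and Olfr911-ps1, have an Olfr symbol of another form. They are counted among all protein-coding genes, and neither among the receptor genes nor among genes of other kinds.

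The data were H3K27ac and H3K4me3 profiles of mouse embryos at the late 2-cell stage, 36 h after fertilization. They were made by ULI-NChIP-seq, a chromatin immunoprecipitation for small cell numbers in which micrococcal nuclease cuts uncrosslinked chromatin. Control embryos had been injected with H2O as zygotes, and mutant embryos with Hdac1 mutant mRNA. Each of the 4 pairings of condition and modification had 2 immunoprecipitation and 2 input libraries, 16 in all, and was represented by 1 deposited list of peak positions. Strain, the mutation and the number of embryos are not given in the sources used here, and the labels name no deletion of the embryo's own Hdac1. The lists come from whole embryos, so the number of cells with a mark and its level per cell cannot be told apart. With 1 list per group and no signal values, no difference below has a replicate error or a test. The depth of the libraries is unknown, and intervals on shares are 95% Wilson intervals that cover counting error only. The study's comparison asks where both modifications lie when a mutant form of this histone deacetylase is present at zygotic genome activation.

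Olfactory receptors detect odorants on the cilia of sensory neurons in the nose. Their genes lie in tandem arrays on many chromosomes, and each mature olfactory neuron expresses a single allele of a single receptor gene while the remaining genes stay in compacted heterochromatin. Class I receptor genes, related to those of fish, sit together on mouse chromosome 7, and class II genes make up the rest. H3K27ac, an acetylation that histone deacetylases remove, accompanies active enhancers and promoters. H3K4me3 is a mark mainly of promoters.

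The stretches below are the 250 bases before the annotated start of 7 receptor genes, taken from RefSeq promoters of GRCm38.p6 and written 5′ to 3′ on the gene's strand. They are shown because they differ in which lists had a peak there, from all of them to none, with examples from each condition. Capitals mark CG dinucleotides. Olfr287 (chr15:98221057-98221306, minus strand) lay wholly under a peak in all 4 lists. Olfr750 (chr14:51071443-51071692, minus strand) lay under a peak in 3 lists and not in control H3K27ac. Olfr544 (chr7:102488308-102488557, minus strand) lay under a peak in both mutant lists and in neither control list. Olfr212 (chr6:116506266-116506515, plus strand) lay under a peak in the mutant H3K27ac list alone. Olfr374 (chr8:72106790-72107039, plus strand) lay under a peak in 3 lists and not in mutant H3K4me3. Olfr222 (chr11:59571739-59571988, minus strand) lay under a peak in the control H3K4me3 list alone. Olfr558 (chr7:102702073-102702322, plus strand), a class I gene of the same cluster as Olfr544, lay under no peak.
Olfr287: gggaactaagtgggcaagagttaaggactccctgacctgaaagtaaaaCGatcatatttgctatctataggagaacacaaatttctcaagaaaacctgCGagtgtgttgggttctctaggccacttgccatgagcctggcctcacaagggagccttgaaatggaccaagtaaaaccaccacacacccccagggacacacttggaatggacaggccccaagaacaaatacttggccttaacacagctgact
Olfr750: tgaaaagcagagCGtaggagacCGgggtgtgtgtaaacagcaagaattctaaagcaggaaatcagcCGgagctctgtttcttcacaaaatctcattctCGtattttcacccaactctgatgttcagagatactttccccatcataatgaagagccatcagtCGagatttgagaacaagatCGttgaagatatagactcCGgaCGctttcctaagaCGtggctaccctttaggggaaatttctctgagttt
Olfr544: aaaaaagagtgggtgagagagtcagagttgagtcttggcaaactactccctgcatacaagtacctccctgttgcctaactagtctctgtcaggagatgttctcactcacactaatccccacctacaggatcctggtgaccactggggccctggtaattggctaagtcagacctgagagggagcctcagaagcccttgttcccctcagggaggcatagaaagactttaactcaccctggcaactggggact
Olfr212: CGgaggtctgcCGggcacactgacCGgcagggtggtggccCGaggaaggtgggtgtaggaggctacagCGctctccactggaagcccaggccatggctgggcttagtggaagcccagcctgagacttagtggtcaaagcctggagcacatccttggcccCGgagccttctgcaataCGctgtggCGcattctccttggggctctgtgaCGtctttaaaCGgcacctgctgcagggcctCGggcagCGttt
Olfr374: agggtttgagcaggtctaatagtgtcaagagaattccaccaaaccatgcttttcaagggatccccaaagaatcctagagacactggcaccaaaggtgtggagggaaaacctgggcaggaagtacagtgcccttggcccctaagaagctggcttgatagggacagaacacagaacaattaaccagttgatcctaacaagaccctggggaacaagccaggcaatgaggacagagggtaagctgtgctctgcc
Olfr222: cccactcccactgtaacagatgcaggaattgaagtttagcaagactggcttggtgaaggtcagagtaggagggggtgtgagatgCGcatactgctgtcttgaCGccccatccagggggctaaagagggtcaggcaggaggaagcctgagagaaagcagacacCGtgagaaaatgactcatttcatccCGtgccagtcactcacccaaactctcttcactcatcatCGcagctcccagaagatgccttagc
Olfr558: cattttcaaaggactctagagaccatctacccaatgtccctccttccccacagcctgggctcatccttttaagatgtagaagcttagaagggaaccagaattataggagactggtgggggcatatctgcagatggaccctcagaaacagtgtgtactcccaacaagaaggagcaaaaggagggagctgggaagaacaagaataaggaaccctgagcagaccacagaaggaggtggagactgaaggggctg
These stretches hold 2 CG dinucleotides in Olfr287, 9 in Olfr750, 0 in Olfr544, 12 in Olfr212, 0 in Olfr374, 5 in Olfr222 and 0 in Olfr558. Peaks therefore lay over starts without any CG, as at Olfr544, and over starts that hold many, as at Olfr212.

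The receptor genes were short and closely spaced. The median gene model was 950 bp and the median region 4950 bp, against 23182 bp for the regions of the 19561 genes with no Olfr symbol. The median distance to the nearest other receptor gene was 13597.5 bp, and that to the nearest gene of another kind was 140647 bp. Of the 1100 gene models, 898 were at most 1.1 kb long, and 795 of these had a length that is a multiple of 3, as coding length alone would. For such models the annotated start is that of the coding sequence and can lie far from the site of transcription start.

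Peaks were sparse at olfactory receptor genes in all 4 lists. In the control H3K27ac list 115 receptor genes (10.5%, interval 8.78 to 12.4%) were marked, against 71.2% of all protein-coding genes. In the mutant H3K27ac list 117 were marked (10.6%, 8.95 to 12.6%), against 73.9% of all genes. The H3K4me3 lists marked 90 receptor genes in control (8.18%, 6.70 to 9.95%; 81.1% of all genes) and 102 in mutant (9.27%, 7.70 to 11.1%; 80.2%). Each interval lay far below the share over all genes. Most receptor genes, 790 or 71.8%, had no peak in any list, against 11.1% of all genes.

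A gap to other genes was also present within a shared range of region lengths. Among 3941 genes of other kinds whose regions had the length of receptor gene regions (between 4924 and 10316.7 bp, the 5th to 95th percentile), 53.2% and 53.01% were marked by H3K27ac in control and mutant. For H3K4me3 the shares were 70.1% and 68.6%. The median region of this group was 7414 bp, still longer than the 4950 bp of receptor genes. This length range was chosen after the data had been seen. In bases, 1.35% and 1.87% of receptor gene regions lay under H3K27ac peaks in control and mutant, and 1.94% and 2.88% under H3K4me3 peaks. The same shares were 29.1%, 24.8%, 42.6% and 45.6% over these 3941 genes, and 15.2%, 13.6%, 14.6% and 15.7% over all genes that are no olfactory receptor. The share of bases therefore also varied with region length, and receptor genes were below both groups.

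Vomeronasal receptor genes, which encode pheromone receptors and also lie in arrays, gave values of the same order. Of 352 such genes, 15.9% and 14.5% were marked by H3K27ac in control and mutant, and 8.81% and 11.9% by H3K4me3. Their covered bases were 0.968%, 1.30%, 1.03% and 0.786%, lower than at olfactory receptor genes in each list. The 360 Zfp zinc finger genes, another multi-copy family with many tandem members, were marked at 79.7% and 85.3% for H3K27ac and 96.4% and 92.5% for H3K4me3. Their regions were longer, with a median of 22104 bp, so these marked shares are not on a like footing. Their covered bases were 20.6%, 17.1%, 20.5% and 20.5%. The intervals of olfactory and vomeronasal genes overlapped in 3 of the 4 lists, and the exception was control H3K27ac (12.5 to 20.1% for vomeronasal genes).

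**Figure D1:**
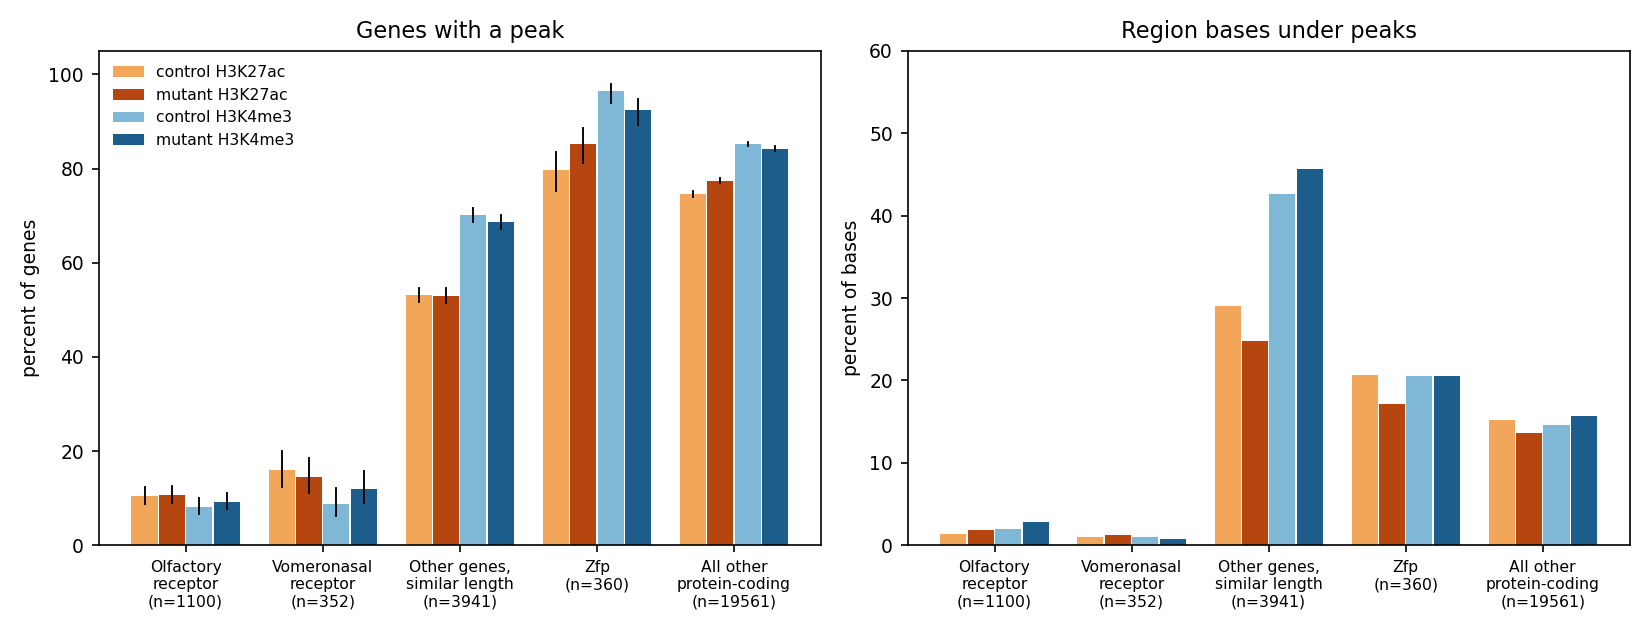
Share of genes with a peak (left, percent, bars with 95% Wilson intervals) and share of region bases under peaks (right, percent) for 5 gene groups in the 4 peak lists. Olfactory receptor genes stood between 8.18% and 10.6% marked, near vomeronasal receptor genes and below the 3 other groups.

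Control and mutant lists as deposited marked 115 and 117 receptor genes with H3K27ac, mostly not the same genes. Only 21 receptor genes had an H3K27ac peak in both conditions (1.91%), against 63.0% of all genes. A peak in control alone was found at 94 (8.55%; 8.18% of all genes) and in mutant alone at 96 (8.73%; 10.8% of all genes). Both of these shares are near the background. The near equality of the totals depends on which peaks are kept. The mutant list held 114737 peaks and the control list 73320, and the ratio of marked receptor genes, mutant to control, was 1.02. It was 0.435 with the mutant list reduced to the size of the control list by width, and 1.89 with the wider 50% of each list. Of the receptor genes marked in control, 18.3% were also marked in mutant, above the 10.6% of all receptor genes marked in mutant. Over all genes the corresponding shares were 88.5% and 73.9%. For H3K4me3, 31 receptor genes were marked in both conditions (2.82%; 76.5% of all genes), 59 in control alone (5.36%; 4.60%) and 71 in mutant alone (6.45%; 3.76%). Of those marked by H3K4me3 in control, 34.4% were also marked in mutant, above the 9.27% of all receptor genes marked in mutant. Over all genes these shares were 94.3% and 80.2%.

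In bases, the mutant lists covered more of the receptor gene regions. H3K27ac peaks covered 87.7 kb in control and 121.55 kb in mutant, a ratio of 1.39. The H3K4me3 peaks covered 126.1 kb and 187.4 kb, a ratio of 1.49. Over all protein-coding genes the ratios were 0.897 for H3K27ac and 1.07 for H3K4me3. Over the vomeronasal receptor genes they were 1.34 and 0.766, so the mutant excess was shared with that family for H3K27ac and not for H3K4me3. The H3K27ac difference was spread over both directions, with 110 receptor genes more covered in mutant (10%; 38.8% of all genes) and 101 less (9.18%; 42.9%). More genes were thus higher than lower here, and fewer over all genes. For H3K4me3, 91 were more covered (8.27%; 48.0% of all genes) and 70 less (6.36%; 35.6%). The excess of the former over the latter was in the same direction as over all genes. The 10 receptor genes with the largest differences in H3K27ac, 5 in each direction, had differences that summed to 25.1 kb and -14.6 kb, and the net difference over all others was 23.3 kb. Without the corresponding 10 genes the H3K4me3 difference was 52.8 kb of a total of 61.3 kb. The H3K27ac ratio was 1.098 when the longer mutant list was reduced to the size of the control list by keeping its widest peaks.

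The 2 modifications seldom met at a receptor gene, where each was also rare. In control embryos 21 receptor genes carried both (1.91%; 67.4% of all genes), 94 H3K27ac alone (8.55%; 3.78%) and 69 H3K4me3 alone (6.27%; 13.6%). In mutant embryos 31 carried both (2.82%; 68.7% of all genes), 86 H3K27ac alone (7.82%; 5.12%) and 71 H3K4me3 alone (6.45%; 11.5%). In both conditions H3K27ac alone was found at a higher share of receptor genes than of all genes, and H3K4me3 alone at a lower share. H3K4me3 itself marked 8.18% and 9.27% of receptor genes, against 81.1% and 80.2% of all genes. Of the receptor genes with H3K4me3, 23.3% in control and 30.4% in mutant also had H3K27ac. Both values lay above the 10.5% and 10.6% of all receptor genes that had H3K27ac. Over all genes 83.2% and 85.7% of those with H3K4me3 had H3K27ac, where 71.2% and 73.9% of all genes had it.

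Peaks at receptor genes were narrow. The control H3K27ac list had 124 peaks there with a median width of 554.5 bp (1205 bp over all peaks on chromosomes 1 to 19), and the mutant list had 139 with a median of 554 bp (1088 bp). The H3K4me3 peaks were wider, with medians of 1130 bp for 99 peaks in control and 1238.5 bp for 116 in mutant (1695 and 1765 bp over all peaks). Peaks over 5 kb numbered 6 and 6 for H3K27ac in control and mutant (4.84% and 4.32%; 20.3% and 10.4% of all peaks) and 9 and 15 for H3K4me3 (9.09% and 12.9%; 16.7% and 20.5%). The H3K4me3 share was higher in mutant both here and over all peaks. Few of these peaks overlapped a peak of the other condition. The shares were 12.9% (8.10 to 19.9%) and 8.63% (5.01 to 14.5%) for H3K27ac in control and mutant, against 39.5% and 32.8% of all peaks. For H3K4me3 they were 33.3% and 27.6%, against 48.7% and 45.9%.

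Width and overlap went together. Of the 59 control H3K27ac peaks of 500 bp or less at receptor genes, 2 overlapped a mutant peak (3.39%), against 11.6% of all control peaks of that width. Of the 6 over 5 kb, 4 did (66.7%; 83.2% of all). For H3K4me3 in control the overlap was 6.90% in the narrowest class of 29 peaks and 88.9% in the widest class of 9, where it was 88.5% over all peaks. In mutant it was 6.25% of 32 narrow peaks and 73.3% of 15 wide peaks, against 9.67% and 90.6% over all peaks. In each of the 4 lists the overlap at receptor genes was thus lowest for the narrowest peaks and highest for the widest, as it was over all peaks. Overlap was counted from 1 bp, so a wider peak had more positions at which it could meet another. What width alone adds to this order was not tested. The narrow classes hold few overlapping peaks, and the widest hold 6 to 15 peaks in all.

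Covered bases were concentrated on few receptor genes. The 10 most covered genes of each list held 39.7% and 42.8% of the covered bases for H3K27ac in control and mutant, and 37.4% and 32.9% for H3K4me3. The same top share of all protein-coding genes, 188 of them, held 9.50%, 8.91%, 7.13% and 7.08%, where far more genes had a peak. In the vomeronasal family that share, 3 genes, held 34.7%, 39.1%, 38.6% and 27.9%. Receptor genes with at least 50% of their region under H3K27ac peaks numbered 4 in control (0.364%; 21.2% of all genes) and 8 in mutant (0.727%; 14.3%), a rise where the share of all genes fell. For H3K4me3 they numbered 14 (1.27%; 21.7% of all genes) and 26 (2.36%; 23.4%). Peaks in all 4 lists were found at 4 receptor genes, Olfr225, Olfr287, Olfr374 and Olfr1513, against 59.7% of all genes. A further 20 had peaks in 3 lists (1.82%; 15.0% of all genes), 62 in 2 (5.64%; 8.28%) and 224 in 1 (20.4%; 5.89%). A peak in exactly 1 list was thus found at a higher share of receptor genes than of all genes. The 24 genes with peaks in 3 or 4 lists lay at a median of 21670.5 bp from the nearest gene of another kind, and the 790 with none at a median of 167991 bp.

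Olfr225 (chr11:59612966-59614225), a class II gene of family MOR256 at the end of its cluster, had the highest mean covered share over the 4 lists (62.7%). H3K27ac peaks covered 12.5% of its region in control and 97.3% in mutant, and H3K4me3 peaks 84.0% and 57.0%. The modifications thus differed between the conditions in opposite directions at this gene. Its widest peak was a control H3K27ac peak of 9525 bp (chr11:59601657-59611181), most of which lay beside the region, and in mutant a peak of 6404 bp (chr11:59609679-59616082) lay over it. Olfr1513 (chr14:52349103-52350044), 20432 bp from Sall2, was more covered in mutant for both modifications. Its H3K27ac values were 16.6% and 87.5%, and its H3K4me3 values 18.5% and 71.4%. Olfr374 (chr8:72107040-72110509) went the other way, with 82.6% in control and 47.2% in mutant for H3K27ac, and 49.5% and 13.1% for H3K4me3.

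Olfr287 (chr15:98202311-98221056) had 31.1% and 57.8% of its region under H3K27ac peaks in control and mutant, and 46.2% and 53.3% under H3K4me3 peaks. A mutant H3K27ac peak of 12861 bp (chr15:98212978-98225838) covered its annotated start and reached the region of its neighbour Olfr286. No gene of another kind had a region that touched this peak. The corresponding control peak was 6654 bp wide (chr15:98214883-98221536). Both lists thus had a wide H3K27ac peak over the stretch printed above for this gene.

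Olfr544 (chr7:102484114-102488307), a class I receptor of family MOR42 known for its response to azelaic acid, had no control H3K27ac peak and the largest mutant excess for that modification. Peaks covered 6935 bp of its 8194 bp region in the mutant H3K27ac list. H3K4me3 peaks covered 4422 bp in control and 7098 bp in mutant, and only the mutant peak reached the stretch before its start. The next largest H3K27ac excesses in mutant were 6067 bp at Olfr287, 4459 bp at Olfr225, 3955 bp at Olfr687 and 3729 bp at Olfr212. The largest differences in the other direction, mutant minus control, were -4065 bp at Olfr118, -2771 bp at Olfr328, -2673 bp at Olfr460, -2649 bp at Olfr374 and -2437 bp at Olfr1463. Of these 5, Olfr374 alone had an H3K27ac peak in mutant as well.

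For H3K4me3 the largest mutant excesses were 6146 bp at Olfr288, 5307 bp at Olfr286, 4954 bp at Olfr455, 3705 bp at Olfr683 and 3639 bp at Olfr15. Olfr455 lay wholly under a mutant peak of 10533 bp (chr6:42535288-42545820) and had no peak in the other lists. Olfr95 was also covered over its whole region in mutant, by a peak of 13658 bp (chr17:37201152-37214809), and over 64.2% of it in control. The peak of 12270 bp over Olfr15 (chr16:3838540-3850809) also touched the region of Zfp174. The largest differences in the other direction were -3729 bp at Olfr315, -3295 bp at Olfr677, -2872 bp at Olfr521, -2721 bp at Olfr374 and -2627 bp at Olfr222.

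Control embryos had their own wide H3K4me3 peaks at receptor genes. The widest, 7850 bp (chr11:58842159-58850008), lay beside Olfr311 and touched the region of Gm12258 as well. A peak of 7373 bp (chr15:98495728-98503100) covered 94.9% of the region of Olfr279, against 53.2% in mutant. A peak of 6900 bp (chr11:59561957-59568856) touched Olfr222 and the region of Nlrp3. Olfr750 (chr14:51070311-51071442), whose start holds more CG dinucleotides than most receptor genes, had H3K4me3 over 59.9% and 74.4% of its region in control and mutant, and H3K27ac over 0% and 35.2%.

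Among the receptors best known from odorant response and receptor choice studies, 3 of 11 had no peak in any list, against 71.8% of all receptor genes. Olfr151 (M71) was also on the planned list but is not among these 11, and no values are given for it. Gene models over 1.1 kb were found for 6 of these 11 and for 202 of the 1100, and 40.6% of such longer models had a peak in some list, against 25.4% of the shorter ones. Most of the others had short stretches covered. Olfr16 (MOR23), Olfr73 (mOR-EG) and Olfr558 were the genes with none. Olfr2 (I7), known for its response to octanal, had 768 bp under mutant H3K27ac peaks and none elsewhere. Olfr17 (P2) had 368 bp and Olfr1507 (MOR28) 150 bp in that list alone. Olfr160 (M72), Olfr78 and Olfr1508 (MOR10) had 340, 498 and 841 bp under control H3K27ac peaks alone. Olfr545 (S50) had 314 bp in mutant H3K27ac and 2157 bp in control H3K4me3. Of the genes of this group Olfr544 alone had more than 2157 bp covered in any list.

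The receptor genes formed 48 clusters and lone genes when neighbours at most 1 Mb apart were joined, on 16 of the 19 chromosomes. Clusters of 5 or more numbered 29 and held 1065 of the genes. The median share of region bases under peaks across these 29 clusters was 0.683% and 0.717% for H3K27ac in control and mutant, and 0.927% and 1.80% for H3K4me3. More clusters had the higher share in mutant than in control, 19 against 9 for H3K27ac (1 equal) and 16 against 10 for H3K4me3 (3 equal). A few small clusters stood apart from the others. Groups of under 5 genes could be higher, such as the 3 genes from Olfr372 to Olfr374 on chromosome 8, with 40.8% and 29.1% under H3K27ac peaks and 21.2% and 25.5% under H3K4me3 peaks.

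The cluster of 9 genes from Olfr288 to Olfr279 (chr15:98186011-98498406) was the most covered of the 29 for 3 of the 4 lists. Its shares were 9.91% and 21.7% for H3K27ac in control and mutant, and 31.4% and 52.3% for H3K4me3. Of its genes 2 and 3 were marked by H3K27ac and 6 and 7 by H3K4me3. The genes of family MOR160 within it differed among themselves. Olfr282 had H3K4me3 over 75.4% and 71.6% of its region in control and mutant and Olfr283 over 26.4% and 89.3%, while Olfr285 had no peak in any list. The 6 genes from Olfr70 to Olfr155 on chromosome 4 had 31.6% and 36.3% under H3K4me3 peaks, but 4.59% and 0% under H3K27ac peaks. Olfr70 and Olfr71 at one end of that cluster had peaks, and Olfr155 (mOR37a) at the other had none.

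Other clusters differed between conditions. The 5 genes from Olfr211 to Olfr215 on chromosome 6 had 0.475% of region bases under H3K27ac peaks in control and 21.0% in mutant, and 3.47% and 26.1% under H3K4me3 peaks. The 5 genes carried different marks. In mutant, Olfr211 had H3K27ac over 65.5% of its region and no H3K4me3, and Olfr212 had both, over 24.1% and 10.9%. Olfr214 also had both there, with 24 bp under H3K27ac and 2063 bp under H3K4me3. Olfr213 and Olfr215 had H3K4me3 alone in mutant, over 38.7% and 76.3%. In the 12 genes from Olfr1370 to Olfr1359 (chr13:21072349-21703965), which lie among zinc finger and histone genes, 1 gene was marked by H3K27ac in control and 6 in mutant. No gene of this cluster had an H3K4me3 peak in control, and 6 had one in mutant. Their covered shares were 2.54% and 7.47% for H3K27ac and 0% and 7.87% for H3K4me3. The 25 genes from Olfr172 to Olfr209 on chromosome 16 had 3 marked by H3K27ac in control and none in any other list. The 24 genes from Olfr30 to Olfr225 on chromosome 11 went in opposite directions for the modifications, with 3.56% and 7.22% under H3K27ac and 12.7% and 8.69% under H3K4me3.

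**Figure D2:**
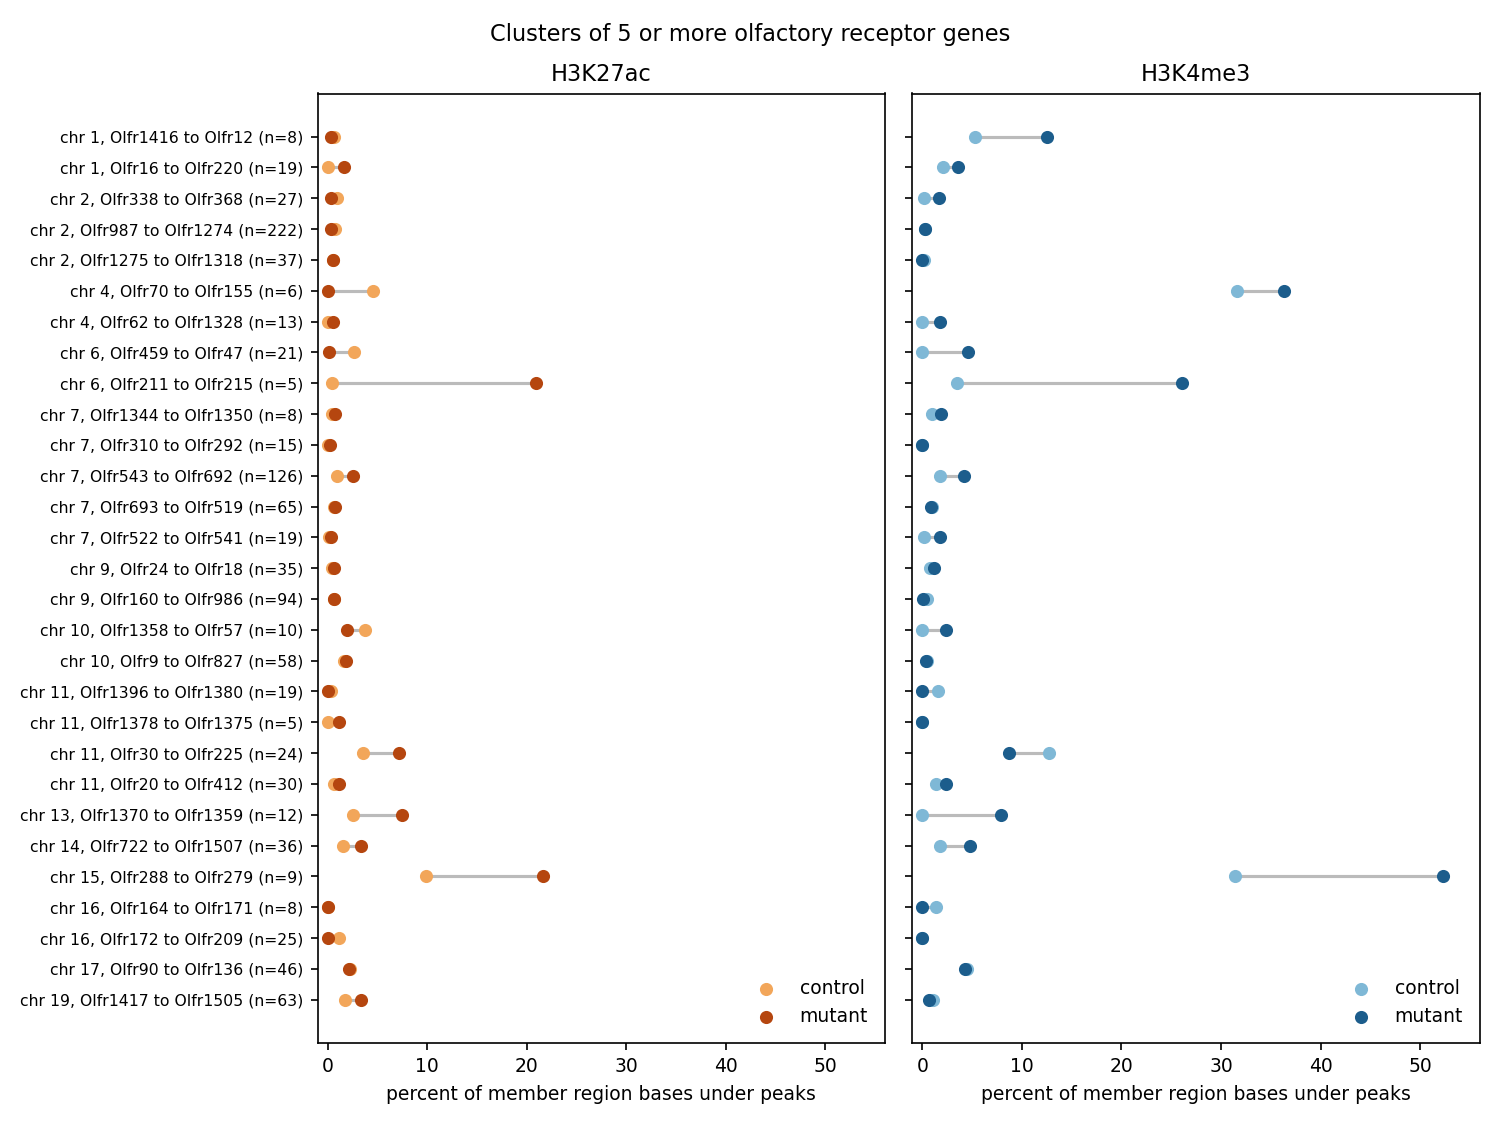
Share of receptor gene region bases under peaks (percent) in each of the 29 clusters of 5 or more receptor genes, for H3K27ac (left) and H3K4me3 (right), with control and mutant points joined by a line. Most clusters lie near 0. The clusters Olfr70 to Olfr155 (chromosome 4), Olfr211 to Olfr215 (chromosome 6) and Olfr288 to Olfr279 (chromosome 15) reach between 21.0% and 52.3% in mutant for at least one modification.

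The largest cluster, 222 genes from Olfr987 to Olfr1274 (chr2:85330967-90401674), had 18 and 10 genes marked by H3K27ac in control and mutant and 9 and 6 by H3K4me3. Its region shares were 0.795% and 0.325% for H3K27ac and 0.306% and 0.252% for H3K4me3, so here the mutant lists covered less. Over its whole span, genes and the sequence between them, the shares were higher, at 1.97%, 1.35%, 1.44% and 1.29%. The class I cluster, 126 genes from Olfr543 to Olfr692 (chr7:102476773-105369317) of which 120 are class I, had the opposite order. H3K27ac marked 15 of its genes in control and 17 in mutant, and H3K4me3 8 and 19. Its region shares were 0.957% and 2.55% for H3K27ac and 1.78% and 4.22% for H3K4me3.

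**Figure D3:**
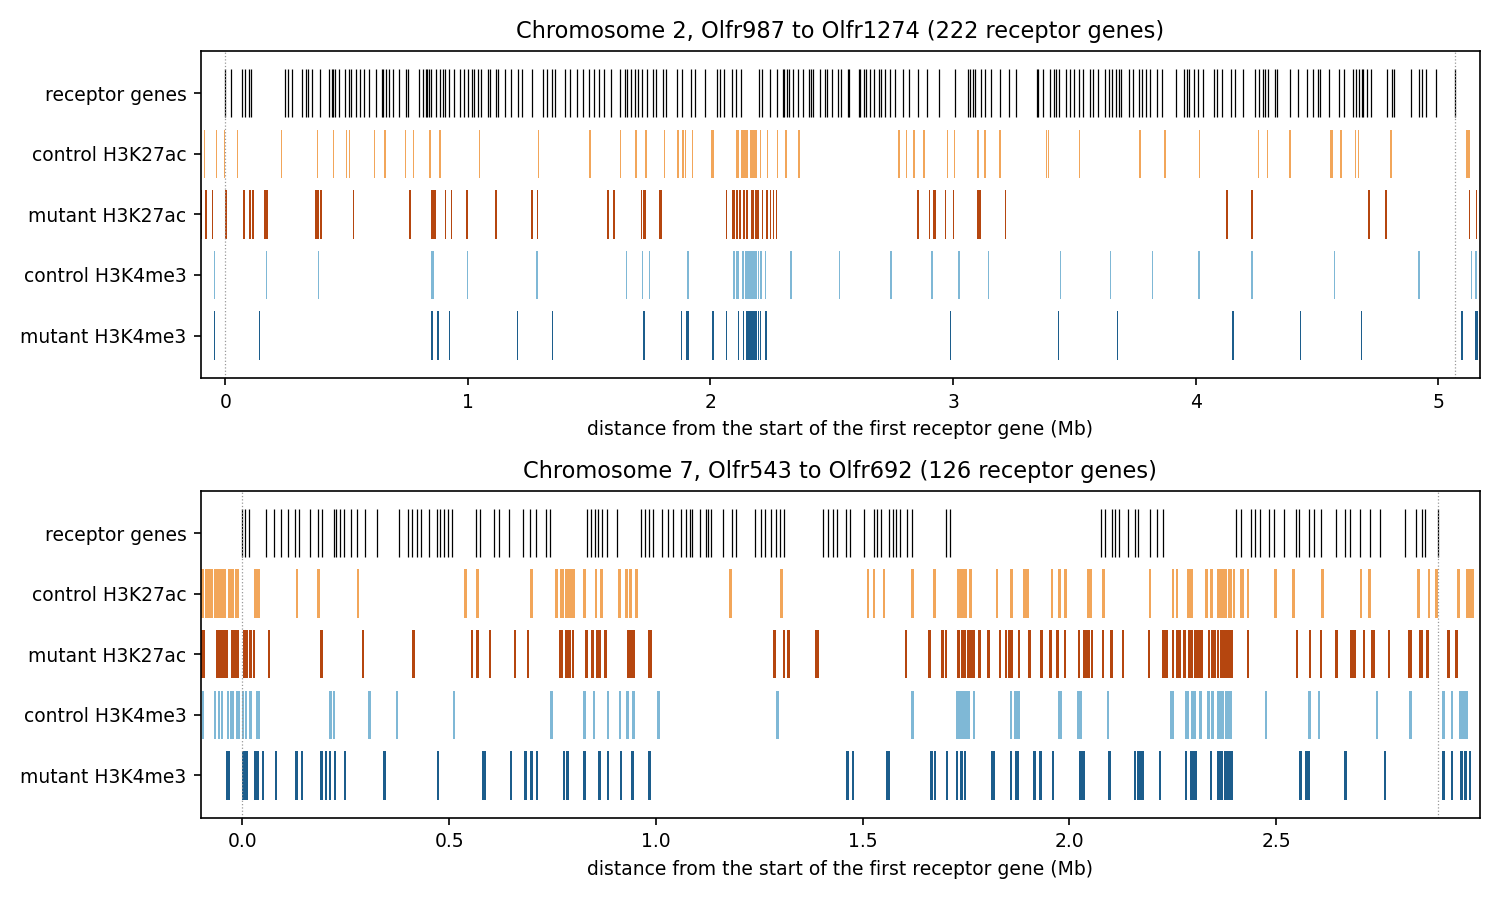
Receptor gene starts (black ticks) and peaks of the 4 lists (coloured blocks) along the 2 largest clusters, by distance from the start of the first receptor gene in Mb, with 100 kb of margin. Peaks under 6 kb are drawn 6 kb wide so that they can be seen. Dotted lines mark the ends of the clusters. In both maps a dense group of peaks lies mostly in a gap between receptor genes.

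Receptor genes near genes of other kinds were marked at higher shares than those far from them, with intervals apart for H3K4me3. Of the 41 with another kind of gene within 10 kb, 36.6% (23.6 to 51.9%) and 24.4% (13.8 to 39.3%) were marked by H3K4me3 in control and mutant. Of the 438 with none within 200 kb, 4.34% (2.79 to 6.68%) and 2.74% (1.57 to 4.73%) were. For H3K27ac the shares of the near group were 12.2% in both conditions, and those of the far group were 8.45% and 5.71%, with overlapping intervals between these groups in each list. The 215 genes at over 10 to 50 kb had 16.3% and 21.4% for H3K27ac (11.9 to 21.8% and 16.4 to 27.4%) and 17.2% and 21.9% for H3K4me3. Their H3K27ac intervals lay above those of the far group (6.19 to 11.4% and 3.90 to 8.29%) in both lists. Among the distance classes, the H3K27ac share of bases was higher in mutant for these 215 genes alone (2.698% in control, 6.085% in mutant). It was lower in mutant at 10 kb or less (2.004% and 1.433%), over 50 to 200 kb (1.136% and 1.057%) and over 200 kb (0.772% and 0.510%). For H3K4me3 the share of bases was higher in mutant in both middle classes and lower in the nearest and farthest. These distance classes were chosen after values had been seen. In only 15 receptor genes did the region itself touch that of another kind of gene, and 8 and 4 of them had H3K4me3 in control and mutant.

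Place within a cluster gave a related picture. Of the 116 genes at cluster edges, the first 2 and last 2 of each cluster of 5 or more, 11.2% were marked by H3K27ac in control and 24.1% (17.3 to 32.7%) in mutant. Of the 949 interior genes 9.80% and 8.75% (7.11 to 10.7%) were. For H3K4me3 the edge shares were 17.2% and 21.6% and the interior shares 6.43% and 7.38%. The edge and interior intervals were apart in 3 lists and overlapped in control H3K27ac. Of edge region bases, 2.18% and 6.28% lay under H3K27ac peaks in control and mutant, against 1.048% and 1.104% of interior region bases. For H3K4me3 these shares were 6.54% and 9.91% at edges, and 1.114% and 1.782% in the interior. Class I genes (122) and class II genes (952) did not stand apart in the control lists, at 12.3% and 10.2% for H3K27ac and 7.38% and 8.30% for H3K4me3. In mutant H3K4me3 they were 13.9% (8.89 to 21.2%) and 8.51% (6.90 to 10.5%), and the intervals overlapped.

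**Figure D4:**
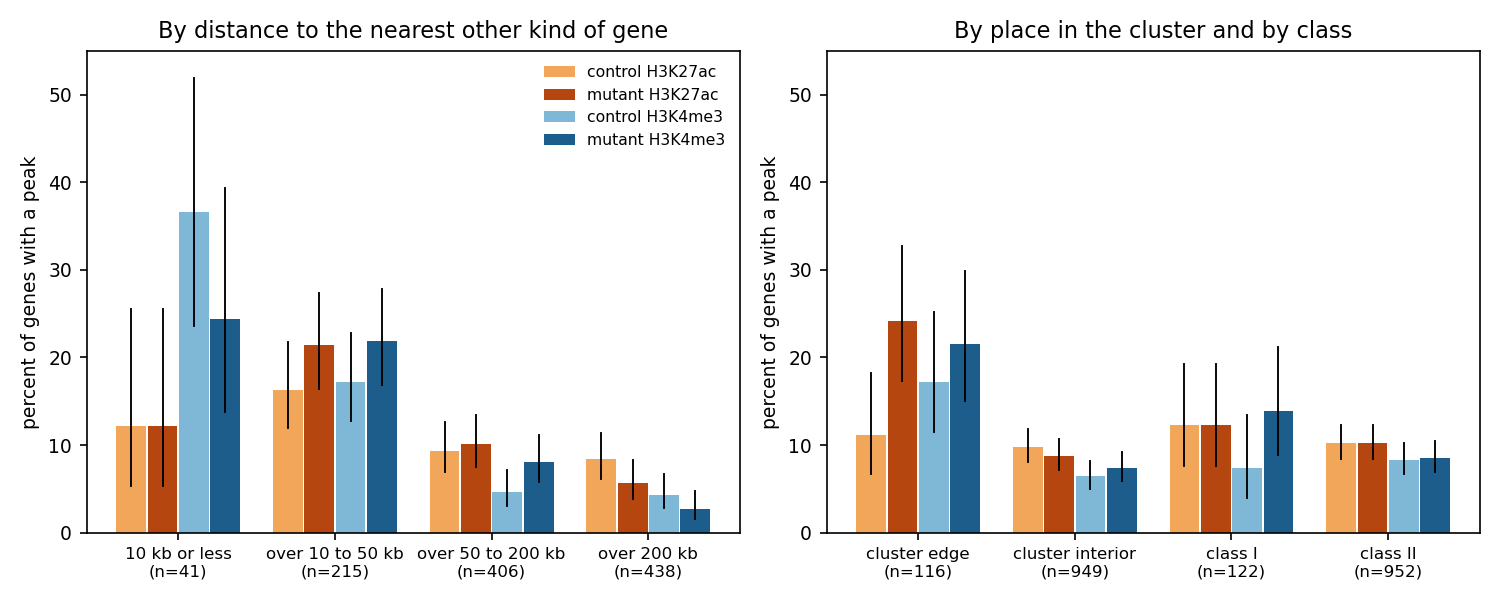
Share of receptor genes with a peak (percent, with 95% Wilson intervals) in the 4 lists, by distance to the nearest gene of another kind (left) and by place in the cluster and receptor class (right). Genes over 200 kb from another kind of gene stood between 2.74% and 8.45%.

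Of 5 receptor families with at least 20 members, MOR256 had the most marked genes, with 8 and 14 of 49 for H3K27ac in control and mutant and 10 and 12 for H3K4me3. Its members lie in several clusters, among them the cluster on chromosome 13 and that of Olfr225. None of the 22 genes of MOR245 had a peak in any list, which at this size allows a share of up to 14.9% per list by the Wilson interval. MOR171, MOR202 and MOR204, with 36, 31 and 31 genes, had 2, 2 and 4 marked genes in control H3K27ac and 1, 3 and 2 in mutant H3K27ac. For H3K4me3 they had 2, 1 and 2 in control and none in mutant.

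Around receptor gene starts the covered share was low, with a small local maximum for H3K4me3. Over the 934 receptor genes with a known strand, H3K27ac peaks covered 1.38% and 2.19% of bases within 1 kb of the annotated start in control and mutant, and 2.62% and 2.82% of bases 20 to 50 kb away. For H3K4me3 the values were 2.49% and 3.57% within 1 kb, and 2.80% and 3.25% farther away. Over 15519 other genes H3K4me3 covered 65.1% and 64.2% within 1 kb, and 24.2% and 24.9% farther away. In the first 1 kb after the start of receptor genes, H3K4me3 covered 2.90% and 4.25% of bases in control and mutant, against 2.07% and 2.90% in the 1 kb before the start and 1.94% and 2.82% from 1 to 2 kb after it. H3K27ac covered 1.49% and 2.58% in that first 1 kb, against 1.28% and 1.79% before it and 1.03% and 1.71% after it. Bins slightly farther away were higher for H3K27ac. In control it covered 1.89% at 2 to 3 kb before the start and 1.82% at 2 to 3 kb after it. In mutant it covered 3.66% at 5 to 6 kb before the start. At the other genes H3K4me3 covered 68.5% and 66.6% in the first 1 kb, against 61.7% and 61.7% before and 53.1% and 59.0% after. H3K27ac covered 37.1% and 30.1% there, against 35.2% and 28.5% before and 31.3% and 26.5% after. Within 20 to 50 kb of receptor genes the covered share was also low.

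**Figure D5:**
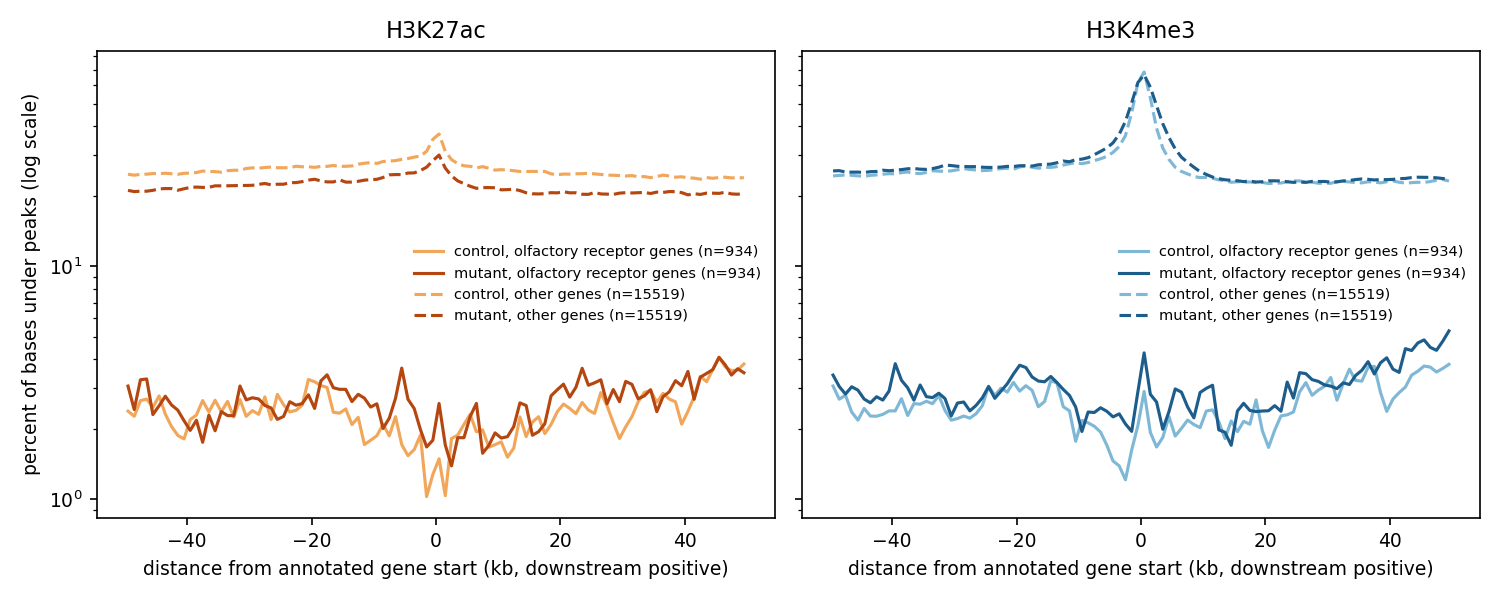
Share of bases under peaks (percent, log scale) in bins of 1 kb from 50 kb before to 50 kb after the annotated gene start, for 934 receptor genes (solid) and 15519 other genes (dashed) in control and mutant. Receptor gene lines stay between 1.03% and 5.29%, while other genes reach 68.5% at the start in control H3K4me3.

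The sequence before receptor gene starts was poor in CG dinucleotides. RefSeq promoters of 300 bases, 250 before and 50 after a RefSeq start, were matched for 934 of the 1100 genes. For 892 of these the promoter lay at the annotated gene start, and for the others the nearest promoter of the same gene was used. Their median GC content was 35%, against 57.7% for 15519 other genes. They held a median of 1 CG dinucleotide, against 15, and their median ratio of observed to expected CG was 0.106, against 0.632. Receptor genes with a peak in at least 1 list had a median GC content of 38%, those with none 34.3%, and the 21 with a promoter among those in 3 or 4 lists 45%. Their median CG counts were 1, 1 and 2.

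Short motifs differed in the same sense. TAATTA, a core bound by homeodomain factors such as Lhx2, was found in 18.8% of receptor promoters and in 4.62% of all promoters, read on both strands. TATAAA, the core of the TATA box, was found in 41.3%, against 13.5% of all. Both motifs consist of A and T alone. The palindromic core bound by Ebf factors (the O/E site) was found in 0.535% of receptor promoters and 0.948% of all. A match is a string of letters in this window and no evidence of binding. Among receptor genes with a peak in at least 1 list the shares were 14.4% for TAATTA and 34.8% for TATAAA, and among those with none 20.6% and 43.9%.

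Near-identical copies can share reads, and how reads with several equal placements were treated is not given in the sources used here. The promoters of 22 receptor genes were at least 95% identical to that of another. Of these, 2, 2, 0 and 1 were marked in control H3K27ac, mutant H3K27ac, control H3K4me3 and mutant H3K4me3. Of the 126 at 80% to under 95%, 6.35% and 11.1% were marked by H3K27ac in control and mutant and 4.76% and 3.97% by H3K4me3. For the 786 with no promoter as much alike, the shares were 11.3% and 10.2% for H3K27ac and 9.03% and 10.6% for H3K4me3. A further 166 genes had no promoter to compare, so their likeness to other genes was not assessed. Of these, 9.64% and 12.7% were marked by H3K27ac and 7.83% and 7.83% by H3K4me3. The shares without the 22 copies, with these 166 genes kept, are within the main intervals.

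The genes that serve the receptors in olfactory neurons were marked at shares nearer those of all genes. Of 28 such genes, which transduce the signal, carry receptors to the membrane or act in receptor choice, 25 and 23 were marked by H3K27ac in control and mutant and 28 and 26 by H3K4me3, where all genes had 71.2%, 73.9%, 81.1% and 80.2%. Peaks in all 4 lists were found at 21 of them, against 59.7% of all genes. These regions are longer than those of the receptors. Adcy3, the adenylyl cyclase of olfactory cilia, had 42.9% and 53.7% of its region under H3K27ac peaks and 52.5% and 46.5% under H3K4me3 peaks. Lhx2, a homeodomain factor of receptor enhancers, had 0.514% and 3.86% for H3K27ac and 35.7% and 48.5% for H3K4me3. Kdm1a, the histone demethylase Lsd1, had 31.0% and 45.5% for H3K27ac and 21.7% and 33.4% for H3K4me3. Cbx5, a heterochromatin protein, had 87.4% and 29.5% for H3K27ac and 64.2% and 64.0% for H3K4me3. Lbr, the lamin B receptor, had 50.2% and 30.9% for H3K27ac and 42.9% and 42.5% for H3K4me3. Rtp1, which carries receptors to the membrane, had a peak in control H3K4me3 alone.

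The marker lists were short, and their counts stand against shares of 71.2% and 73.9% of all genes for H3K27ac in control and mutant and 81.1% and 80.2% for H3K4me3. All 11 genes of a list including Dppa2, Dppa4, Zfp352 and Tdpoz4 had H3K27ac peaks in both conditions, and 9 and 10 had H3K4me3 peaks in control and mutant, the latter near the shares over all genes. Several of them are multi-copy genes. Of 5 olfactory neuron genes, Omp, Gnal, Adcy3, Rtp1 and Rtp2, 3 and 4 had H3K27ac and 5 and 4 H3K4me3, near those shares as well. Over chromosomes 1 to 19 the lists held 73320 and 114737 H3K27ac peaks in control and mutant that covered 241.8 and 237.2 Mb, and 83220 and 83290 H3K4me3 peaks that covered 246.7 and 272.9 Mb.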

How the data were processed

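ULI-NChIP-seq peaks for 8 immunoprecipitation libraries, 2 per group, were analysed as 4 lists that the authors deposited, 1 per group. Per the file contents, the deposited values are peak positions (chromosome, start and end in bp, with no score, signal or p-value). The genome build is mm10 (GRCm38), and the tools named are CASAVA, Trimmomatic, Bowtie2, SAMtools, Picard, MACS2 and deepTools, per the submitters' processing notes. Their versions, roles and thresholds, the use of the inputs, and whether replicates were pooled are not given in the sources used here.

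Gene positions and promoters came from RefSeq tables of GRCm38.p6. Overlaps, covered bases, clusters and motif counts were computed with Python 3.11.15, numpy 2.4.6 and pandas 2.3.3, and promoter identity with edlib 1.3.9.post1. The overlap code was tested on simulated peaks. A gene was marked at 1 bp of overlap. Groups were taken from sample titles, and comparisons were made between lists without tests.

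All receptor symbols in the table were of the Olfr form, so class was read from the MOR synonym (families below 100 as class I), and 26 genes have no class. Protein identity was replaced by promoter identity. Genes named are the 5 most different in each direction per modification, those under the 3 widest peaks per list, the 10 with the highest mean covered share, known receptors, the ends of the largest cluster, the genes of the olfactory pathway, and others of the clusters described, which were chosen after their values were seen. The family to describe, the gene lists and the comparisons were chosen with earlier results of these data known, while membership of the family follows from the symbol alone.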

Additional observations from a re-analysis of the deposited data

How the results depend on the processing

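With the gene body alone, the marked shares in control and mutant were 4.55% and 5.91% for H3K27ac and 5.18% and 6.45% for H3K4me3. For H3K27ac 42 genes were then marked in control alone, 57 in mutant alone and 8 in both, for H3K4me3 37 in control alone and 20 in both, and both modifications met at 10 and 18. With 5 kb on each side the shares were 19%, 20.2%, 14.4% and 15.5%, the H3K27ac counts 147, 160 and 62, the H3K4me3 counts 93 in control alone and 65 in both, and both modifications met at 50 and 75. With at least 10% of the region under peaks the shares were 4.27%, 4.27%, 4.55% and 5.73%, the H3K27ac counts 36, 36 and 11, the H3K4me3 counts 27 in control alone and 40 in mutant alone, and both met at 8 and 16. With only the wider 50% of peaks kept, the marked shares came to 1.73%, 3.27%, 2.55% and 4.0%, the H3K27ac counts 14, 31 and 5 (ratio of marked genes 1.89), the H3K4me3 counts 10, 26 and 18, both met at 6 and 13, and control bases were 0.626% for H3K27ac and 1.24% for H3K4me3. At 200 bp of overlap the mutant H3K27ac share was 8.73%, and with H3K27ac lists of equal size it was 4.55%, with 36 genes in mutant alone.

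The ratio of genes marked by H3K27ac in mutant to control, 1.02, fell below 1 at 200 bp of overlap (0.980), with common limits on peak gap and width (0.990) and with lists of equal size (0.435), so the order of these counts is not fixed. The mutant to control ratios of covered bases stayed above 1 under each of these settings, between 1.098 and 2.03 for H3K27ac and between 1.41 and 1.79 for H3K4me3. With clusters ended at gaps of 250 kb, 2.10%, 2.68%, 2.52% and 3.08% of cluster bases lay under peaks, against 3.90%, 4.14%, 4.24% and 4.89%. With 50% of a peak required for overlap with the other condition, the shares were 4.32% for mutant H3K27ac and 22.2% and 17.2% for H3K4me3. The remaining 185 values kept within their margins. Removing promoters alike by at least 95% was added after the data were seen, and protein identity was not run. Keeping clusters of 5 or more alone and leaving out the genes with the largest differences were not planned either. Nor were the mutant to control ratios under any setting but the main one. The cause of these shifts was not tested.

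No paired analysis was possible because both replicates of a group share 1 list, which also allowed no replicate to be left out. Depth, signal and replicate spread are unknown, and a region without a peak was not shown to be without signal.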

Other observations

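Related loci outside the 1100 genes gave the following values. Of 315 olfactory receptor pseudogenes on chromosomes 1 to 19, 27 and 39 were marked by H3K27ac in control and mutant (8.57% and 12.4%) and 19 and 19 by H3K4me3 (6.03% each). Their covered bases were 1.59% and 2.78% for H3K27ac and 1.79% and 1.36% for H3K4me3, so for H3K4me3 the mutant list covered less of the pseudogenes, in contrast to the 1.94% and 2.88% at the receptor genes. Of 6 olfactory receptor genes on chromosome X, 2 and 2 had H3K27ac and 0 and 1 H3K4me3. Trace amine receptor genes, a further family of olfactory receptors in the nose, had more marked members, with 5 and 12 of 15 for H3K27ac and 6 and 5 for H3K4me3. Their covered bases were 13.2%, 14.9%, 13.1% and 13.9%. Of 35 bitter taste receptor genes, 5 and 2 had H3K27ac and 1 and 3 H3K4me3. Among vomeronasal genes, 18 and 19 of 230 Vmn1r genes had H3K27ac and 9 and 12 H3K4me3. The 122 Vmn2r genes, whose gene bodies are longer, had 38 and 32 with H3K27ac and 22 and 30 with H3K4me3, while their covered bases were 1.03%, 1.33%, 0.975% and 0.695%.

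Besides Rtp1, 6 genes of the olfactory list lacked a peak in at least 1 list. Gng13, a G protein gamma subunit, had 34.7% of its region under H3K27ac in control and 0% in mutant, and 13.3% and 0% under H3K4me3. Ddit3, a factor of the unfolded protein response that acts in receptor feedback, had 43.6% and 0% for H3K27ac and 51.7% and 45.9% for H3K4me3. Cnga4, a subunit of the olfactory ion channel, had 0% and 9.35% for H3K27ac and 27.6% and 19.3% for H3K4me3. Omp, the marker of mature olfactory neurons, had 0% and 2.27% for H3K27ac and 13.5% and 19.1% for H3K4me3. Grk3, a receptor kinase, had 3.88% and 0% for H3K27ac and 3.19% and 6.14% for H3K4me3. Emx2, a homeodomain factor, had 2.47% and 0% for H3K27ac and 40.2% and 72.1% for H3K4me3.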
